A study of Mus musculus with 12 samples.

Results

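The Notch pathway genes described here were the 4 Notch receptors (Notch1, Notch2, Notch3 and Notch4), 3 of their ligands (Jag1, Jag2 and Dll4) and 3 target genes of the Hey family (Hey1, Hey2 and Heyl). The probes were found by gene name alone, for a set of genes chosen with earlier results of these data known, and all 10 genes were among the 34796 gene names on the array. They were read by 12 of its 55675 probes. Of these, 9 genes with 10 probes passed the detection filter and were tested. In mouse aorta, 5 of the 9 tested genes (Notch2, Notch3, Jag1, Hey2 and Heyl) were lower after 3 days of BAPN + AngII challenge, where 10.8% of all 27801 tested probes were called lower. Jag2 also passed the test but was too close to background for a direction, and none was called higher. With slide as a term of the fit, 0 of the 9 members and 15 of all probes were called. No member was called for rapamycin, either alone or under challenge, where 0.0036% and 0.281% of all probes were called. Without BA+DMSO replicate 2, 2 members and 11151 of all probes were called for rapamycin under challenge.

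Notch signaling passes between touching cells. A Jagged or Delta-like ligand on one cell pulls on a Notch receptor on its neighbor, the receptor is cut by ADAM proteases and then by gamma-secretase, and its freed intracellular part enters the nucleus, where it joins the DNA-binding protein RBPJ and a Mastermind coactivator to switch on Hes and Hey genes. In arteries, Notch3 is known as a receptor of smooth muscle cells and pericytes, Notch4 and Dll4 as endothelial genes, and Jag1 as a ligand that both endothelial and smooth muscle cells make. Hey1, Hey2 and Heyl encode transcriptional repressors of vascular cells.

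All mice were C57BL/6J males aged 11 to 14 weeks, and each array held RNA from a 10 mm length of aorta of 1 mouse, taken above the right renal artery, on day 3 for the challenged groups. The 4 groups had 3 mice each. The DMSO group received the injection vehicle alone by its label. Its array titles begin with Pre, a word the study also uses for mice before the challenge, so whether these mice had been injected for 3 days or were untreated is not settled by the sources used here, and it bears on every comparison with DMSO. The rapamycin group received rapamycin, an inhibitor of the growth kinase mTOR, at 2 mg/kg/day. The BA+DMSO group received the vehicle together with BAPN at 150 mg/kg/day, which blocks the cross-linking of collagen and elastin, and AngII at 1 µg/kg/min, a hormone that raises blood pressure. The BA+rapamycin group received all 3 agents. By the labels and the study's methods, in which rapamycin was dissolved in DMSO, all 4 groups had DMSO, within that doubt, and the RNA was a bulk extract of the tissue.

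The arrays differed in brightness and in slide, and these facts bear on every challenge comparison below. The 75th percentile of the processed signal was 221 to 280 on the DMSO arrays, 257 to 337 on the rapamycin arrays, 78.1 to 246 on the BA+DMSO arrays and 74.6 to 109 on the BA+rapamycin arrays. The DMSO arrays and rapamycin replicate 1 were on slide 1, and the other 8 arrays, with all challenged mice, were on slide 2, so BAPN + AngII and slide can be told apart only through the rapamycin group. Replicates correlated at 0.987 to 0.993 across probes in the unchallenged groups, at 0.974 to 0.982 in BA+rapamycin and at 0.912 to 0.961 in BA+DMSO. All 10 smooth muscle markers were well above background on all 12 arrays. BA+DMSO replicates 2 and 3 had the lowest weights when arrays were weighted by the gene-by-gene method (0.108 and 0.203, all others lying between 0.553 and 2.71). The REML weights did not converge and put BA+DMSO replicate 1 lowest (0.0028), so which array of that group stands apart is not settled, and values without single arrays are given where a call rests on them.

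Which transcript stretch was read matters for Notch1 and Notch2, because each had a bright and a dim probe that gave different values. The first 30 of the 60 bases are shown for both probe pairs and for the members whose values the comparisons turn on, as the array design lists them, in mm9 coordinates, with no part in capitals. The Notch1 probes lie at chr2:26319440-26319499 and chr2:26314630-26314689, the Notch2 probes at chr3:97953914-97953973 and chr3:97951233-97951292, and those of Notch3, Notch4, Jag1, Hey2 and Heyl at chr17:32257848-32257907, chr17:34725120-34725179, chr2:136907433-136907492, chr10:30552729-30552788 and chr4:122926975-122927034. Whether they fall in coding or untranslated sequence was not determined here.
Notch1 A_55_P2171897: tcctgcagtggagggggccttgagacaggc
Notch1 A_55_P2047168: ttgcttctttccaaaatcgaaaagaaagaa
Notch2 A_52_P289213: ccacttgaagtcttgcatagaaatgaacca
Notch2 A_55_P1982793: tcttcaccacactctgcatctgactggtca
Notch3 A_51_P220162: gcctaatagaaatgtttttaggctgttttt
Notch4 A_51_P195875: gttgatttcgagaatccctaaactctggaa
Jag1 A_52_P634090: ggagtattctcataagctagttgaatactt
Hey2 A_51_P307082: ccagaggctcattgacaccaactcaaaaac
Heyl A_52_P337259: aatcattttcttcaaggtctttgcccttct

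**Figure D1:**
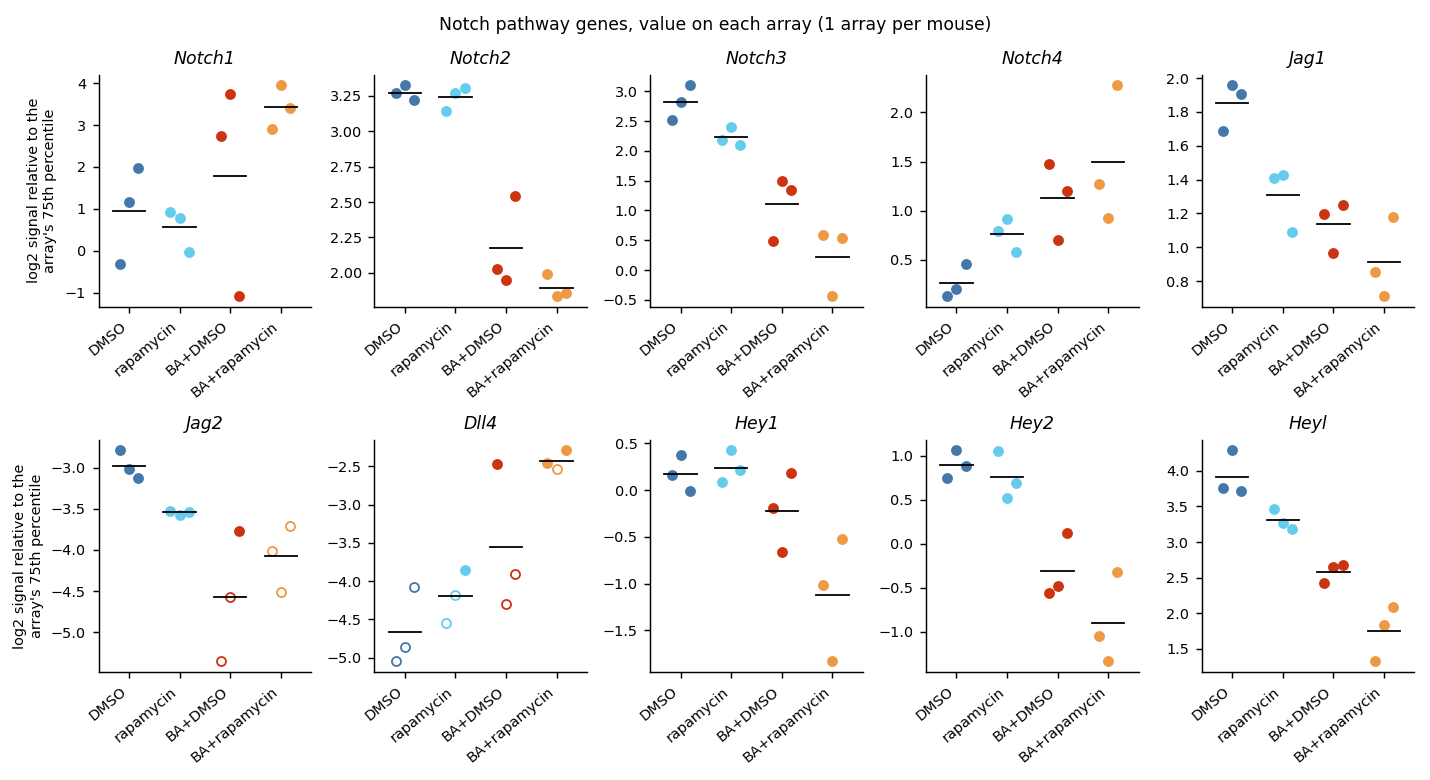
Log2 signal relative to the array's 75th percentile (y axis) for each of the 10 genes in the 4 groups (x axis); each point is 1 mouse, filled where the probe was well above background and open where it was not, and each line is the mean of 3. The 3 DMSO points of Notch2, Notch3, Hey2 and Heyl sit above all 6 points of challenged mice, whereas those of Notch4 sit below them; each panel has its own scale.

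The first question was what BAPN + AngII did without rapamycin, that is, BA+DMSO against DMSO. Of the 9 tested members 5 were called lower and 0 higher, leaving out Jag2, which passed the filter through the unchallenged groups alone, at an adjusted p under 0.05 (limma, Benjamini-Hochberg over 27801 probes), against 20.5% of all tested probes called, 9.65% higher and 10.8% lower. The median log2 difference of the 8 members without Jag2 was -0.90 (-1.10 with it) and that of all tested probes was -0.04. The groups did not overlap for 6 of these 8 members, compared with 34.6% of all probes. As a bulk measurement, fewer cells of a type and less RNA per cell cannot be told apart.

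Notch3, the mural cell receptor, differed most among the called receptors. Its log2 levels were 2.51, 2.82 and 3.10 in DMSO and 0.49, 1.50 and 1.34 in BA+DMSO. The group means were 2.81 ± 0.29 and 1.11 ± 0.54 (SD, n = 3), a 3.25-fold lower signal (log2 difference -1.70 ± 0.32 SE, adjusted p = 0.00562 by limma). All 3 challenged mice lay more than 1 log2 unit below the lowest DMSO mouse.

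Notch2, a receptor widely made in vascular cells, was 2.14-fold lower by its brighter probe. The levels were 3.27, 3.32 and 3.22 in DMSO and 2.03, 1.95 and 2.55 in BA+DMSO, with a log2 difference of -1.10 ± 0.18 (SE, adjusted p = 0.00247 by limma). The DMSO mice were nearly identical, and the challenged mouse nearest to them, replicate 3, was also the brightest array of its group. The other Notch2 probe gave a log2 difference of -0.03 (adjusted p = 0.972), and it was well above background on 2 of 3 DMSO arrays and on 0 of 3 BA+DMSO arrays. With both probes averaged, the Notch2 difference was -0.57 (adjusted p = 0.181) and was no longer called, with the dim probe making up 1 part of that average. In a fit of only the groups compared, the brighter probe lost its call at the same difference of -1.10 (adjusted p = 0.0539 by limma).

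Notch4, the endothelial receptor, had the opposite sign and did not pass the threshold. Its levels were 0.13, 0.20 and 0.46 in DMSO and 1.48, 0.70 and 1.20 in BA+DMSO, so that the groups did not overlap. The log2 difference was 0.87 ± 0.32 (SE, adjusted p = 0.0779 by limma). It was called higher without BA+DMSO replicate 2 (1.08, adjusted p = 0.0385) and, at the same difference of 0.87, without BA+rapamycin replicate 3 (adjusted p = 0.0285). It was not called with slide as a fixed term (adjusted p = 0.615). It was called with slide as a random block, whose correlation was negative at -0.133 (0.86, adjusted p = 0.0183), and with title date as a random block (1.13, adjusted p = 0.047), array weights (1.15, adjusted p = 0.0099) and cyclic loess (0.99, adjusted p = 0.0441).

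Notch1 could not be read with any precision. The probe that passed the filter gave -0.32, 1.17 and 1.99 in DMSO and 2.73, 3.73 and -1.09 in BA+DMSO, a log2 difference of 0.85 ± 1.01 (SE, adjusted p = 0.588). BA+DMSO replicate 3 was the lowest of all 12 arrays on this probe and the other challenged mice were among the highest. Without replicate 3 the difference was 2.28 (adjusted p = 0.0166), and without replicate 2 it was -0.12 (adjusted p = 0.942). The other Notch1 probe was well above background on 0 of the 12 arrays and gives no level. With array brightness as a covariate, the difference on the tested probe turned to -1.73 (adjusted p = 0.0615).

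**Figure D2:**
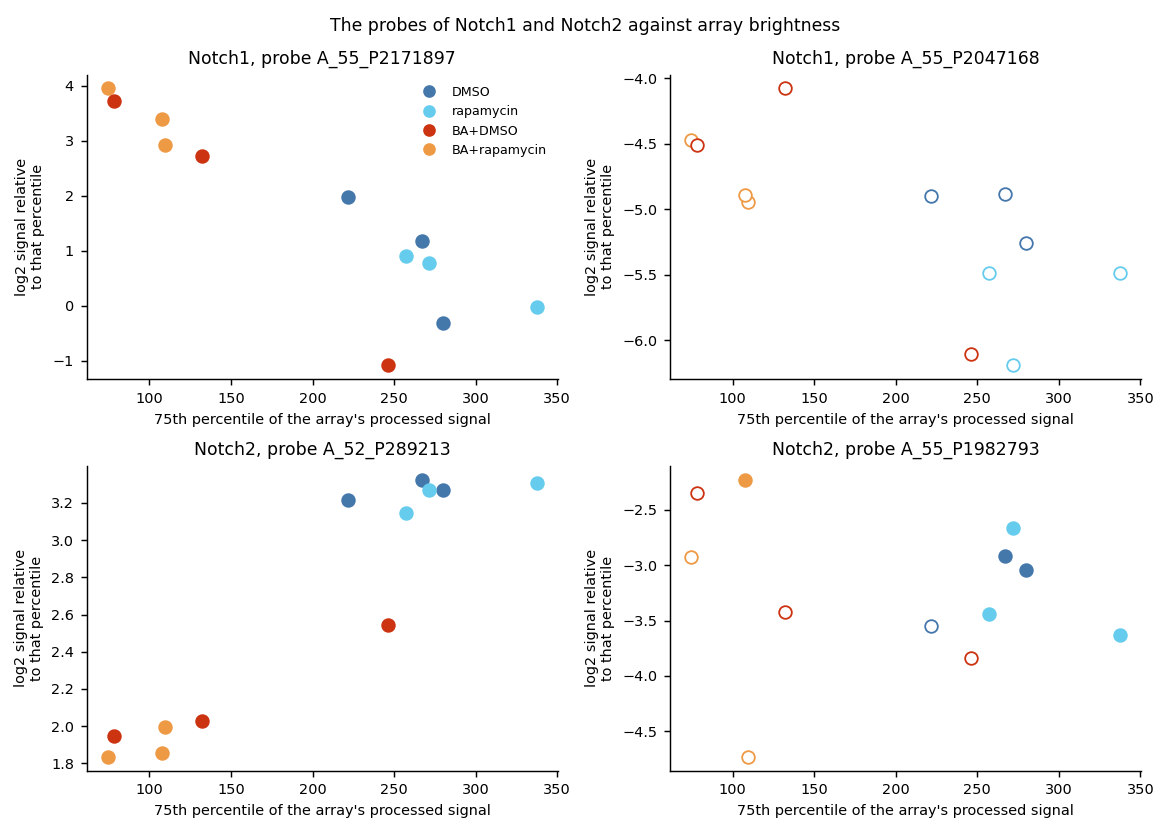
The probes of Notch1 (top) and Notch2 (bottom): log2 signal relative to the array's 75th percentile (y axis) against that percentile of the processed signal (x axis), 1 point per array, colored by group, filled where well above background. On the tested Notch1 probe the 5 arrays with a percentile of 132 or less read 2.73 or more and the other 7 read 1.99 or less; the main Notch2 probe shows the reverse order, with BA+DMSO replicate 3 between.

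Among the ligands, Jag1 was 1.64-fold lower. The levels were 1.69, 1.96 and 1.91 in DMSO and 1.20, 0.97 and 1.25 in BA+DMSO, a log2 difference of -0.71 ± 0.18 (SE, adjusted p = 0.0204 by limma). The groups did not overlap. The call was lost at a similar difference without DMSO replicate 2 (-0.66, adjusted p = 0.0935) or DMSO replicate 3 (-0.68, adjusted p = 0.0708). With title date as a random block the difference was -0.63 (adjusted p = 0.0546). At the same difference of -0.71 the Jag1 call was also lost with no filter (adjusted p = 0.0722 by limma) and with only the groups compared (adjusted p = 0.103).

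Jag2, the other Jagged ligand, was close to background. Its levels were -2.79, -3.02 and -3.12 in DMSO and -5.36, -4.57 and -3.77 in BA+DMSO, and it was above background on all 3 DMSO arrays and on 1 of the 3 challenged arrays. The log2 difference was -1.59 ± 0.34 (SE, adjusted p = 0.00986 by limma), and with normexp background correction it turned to 0.14 (adjusted p = 0.587). The lowest signals that counted as above background were -3.15 and -2.61 on BA+DMSO arrays 1 and 2, about the DMSO level of Jag2 itself, so no direction is given for it.

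Dll4, the Delta-like ligand of arterial endothelium, was not tested, since no group had it well above background on all arrays. It was well above background on 0 of 3 DMSO, 1 of 3 rapamycin, 1 of 3 BA+DMSO and 2 of 3 BA+rapamycin arrays. Its measured log2 signals were -2.47, -4.30 and -3.91 in BA+DMSO, where replicate 1 alone cleared background, and no fold is given.

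Of the Hey target genes, Heyl and Hey2 were lower and Hey1 did not pass the threshold. Heyl read 3.76, 4.29 and 3.71 in DMSO and 2.42, 2.65 and 2.68 in BA+DMSO, a 2.52-fold lower signal (log2 difference -1.34 ± 0.23 SE, adjusted p = 0.00333 by limma). Hey2 read 0.75, 1.06 and 0.88 against -0.56, -0.48 and 0.12, a 2.31-fold lower signal (-1.21 ± 0.28 SE, adjusted p = 0.0141). Neither gene overlapped between the groups, though the Hey2 call was lost at a similar difference without DMSO replicate 2 (-1.13, adjusted p = 0.0661) or BA+DMSO replicate 1 (-1.08, adjusted p = 0.0549). In a fit of only the groups compared, Hey2 also lost its call at the same difference of -1.21 (adjusted p = 0.0516 by limma). Hey1 read 0.16, 0.38 and -0.01 against -0.19, -0.66 and 0.19, with a log2 difference of -0.40 ± 0.31 (SE, adjusted p = 0.396), and the groups overlapped.

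**Figure D3:**
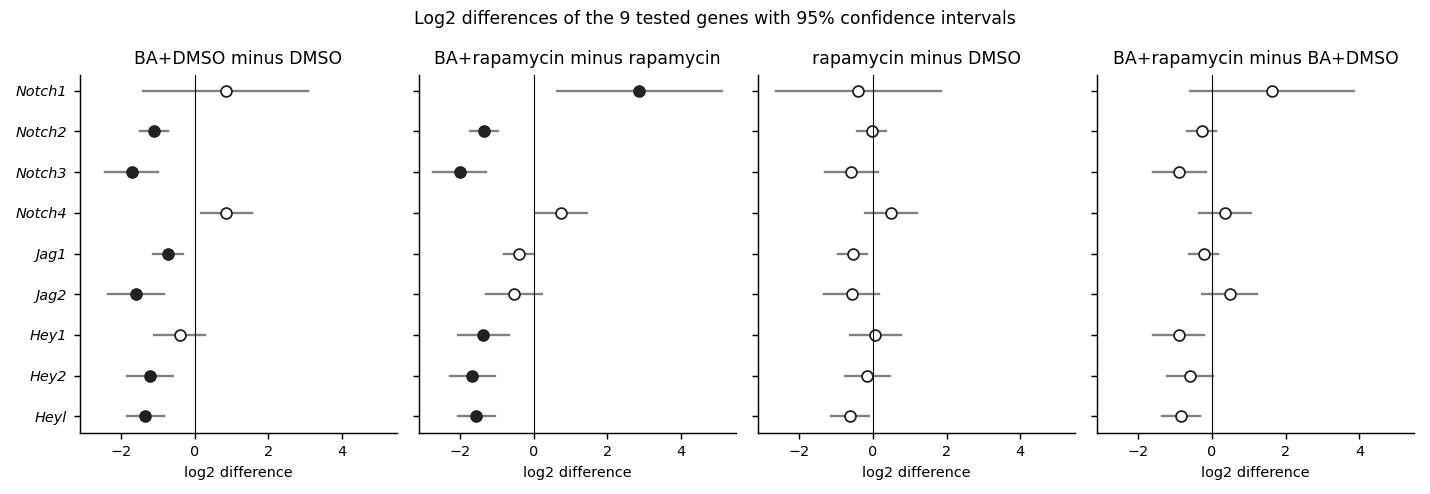
Log2 differences (x axis) of the 9 tested genes (y axis) in 4 comparisons, with 95% confidence intervals; filled points passed an adjusted p of 0.05. The called genes in the panel BA+DMSO minus DMSO run from -0.71 (Jag1) to -1.70 (Notch3), and no point is filled in either rapamycin panel.

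The challenge calls are limited by slide and by probe composition. With slide as a fixed term, 0 of the 9 members were called (15 of 27801 probes were), while the log2 differences of the 6 genes called, with Jag2, kept their sign, between -0.56 (Jag1) and -1.78 (Notch3). Their 6 probes have a GC content of 35 to 41.7%, and the 12408 tested probes in that range had a median log2 difference of -0.23, with 15.8% called lower. After removal of the GC trend on each array, Heyl (-1.13), Notch3 (-1.58), Hey2 (-1.13), Notch2 (-1.08) and Jag2 (-1.57) were still called and Jag1 (-0.55, adjusted p = 0.0551) was not.

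The comparison of BA+rapamycin with rapamycin asked the same of mice that received rapamycin throughout, with other controls. Here 5 members were lower (Notch2, Notch3, Hey1, Hey2 and Heyl) and 1, Notch1, was higher, against 41.7% of all probes called, 18.9% higher and 22.9% lower. The median log2 difference of the 8 members without Jag2 was -1.36 (-1.34 with it) and that of all probes -0.08. The groups did not overlap for 7 of these 8 members and for 65.9% of all probes. Of the 12408 probes with a GC content of 35 to 41.7%, 30.8% were called lower here (median log2 difference -0.33), and of the 2543 with 55%, the content of the Notch1 probe, 28.4% were called higher.

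Notch3 and Notch2 were again the receptors that were lower. Notch3 read 2.18, 2.40 and 2.10 in rapamycin and 0.58, -0.44 and 0.54 in BA+rapamycin, with means of 2.23 ± 0.16 and 0.23 ± 0.58 (SD, n = 3) and a 95% confidence interval of the log2 difference from -2.72 to -1.28 (adjusted p = 0.00155 by limma). Notch2 read 3.14, 3.27 and 3.31 against 1.99, 1.84 and 1.86 (-1.34 ± 0.18 SE, adjusted p = 5.72e-04). Neither gene came near overlap between the groups. The other Notch2 probe was above background in 1 of the 3 BA+rapamycin mice, and its value (-0.05, adjusted p = 0.95) and the average of both probes (-0.70, adjusted p = 0.0689, not called) carry that dim signal.

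Heyl read 3.47, 3.27 and 3.18 in rapamycin and 1.32, 1.84 and 2.09 in BA+rapamycin (log2 difference -1.56 ± 0.23 SE, adjusted p = 0.00101 by limma). Hey2 read 1.06, 0.52 and 0.69 against -1.05, -1.34 and -0.32 (-1.66 ± 0.28 SE, adjusted p = 0.00187). Hey1 read 0.08, 0.43 and 0.21 against -1.01, -1.83 and -0.52 (-1.37 ± 0.31 SE, adjusted p = 0.00748). All 3 Hey genes were thus lower in every BA+rapamycin mouse than in any mouse of the rapamycin group. Within slide 2, with 2 rapamycin arrays against 3, Notch2 (-1.39), Notch3 (-2.02), Hey2 (-1.51) and Heyl (-1.47) were called, and Hey1 (-1.44, adjusted p = 0.0555) and Notch1 were not.

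With brightness as a covariate, only Notch2 (-0.81, adjusted p = 0.0414) and Heyl (-1.58, adjusted p = 0.0476) were called in this comparison. Notch3 lost its call at a similar difference (-1.87, adjusted p = 0.0902), Hey2 stood at -1.02 (adjusted p = 0.195) and Hey1 at -0.33 (adjusted p = 0.662). Under the same covariate in BA+DMSO against DMSO, Notch2 (-0.79), Notch3 (-1.63) and Heyl (-1.35) were called. Brightness differed between the groups with the challenge itself, and its part in these differences was not tested.

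The Notch1 call depended on brightness, slide and the number of arrays. The tested probe read 0.91, 0.78 and -0.03 in rapamycin and 2.92, 3.95 and 3.40 in BA+rapamycin (log2 difference 2.87 ± 1.01 SE, adjusted p = 0.0419 by limma). The adjusted p was 0.0567 without DMSO replicate 2, and between 0.0614 and 0.125 without any 1 of the 6 arrays of the comparison, while the difference stayed between 2.58 and 3.12. The difference was -1.66 (adjusted p = 0.229) with brightness as a covariate and 2.33 (adjusted p = 0.0669) without the GC trend. It was 3.05 with slide as a fixed term (adjusted p = 0.0752) and within slide 2 (adjusted p = 0.111). Notch4 (0.73, adjusted p = 0.0854), Jag1 (-0.39, adjusted p = 0.101) and Jag2 (-0.53, adjusted p = 0.219) were not called. Jag1 was called with normexp (-0.53, adjusted p = 0.0174). Notch4 passed without BA+rapamycin replicate 2 (1.02, adjusted p = 0.0388), with the percentile taken over detected probes (0.92, adjusted p = 0.0396), with cyclic loess (0.95, adjusted p = 0.0326) and with array weights (1.00, adjusted p = 0.00574). Jag2 was well above background on 0 of the 3 BA+rapamycin arrays.

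Rapamycin under challenge, the comparison of BA+rapamycin with BA+DMSO, gave no call for any of the 9 members by limma, with 0.281% of all probes called. At an unadjusted p under 0.05 there were 3 members, against 20.1% of all probes. These were Heyl, Hey1 and Notch3, all lower with rapamycin. Heyl was 2.42, 2.65 and 2.68 in BA+DMSO and 1.32, 1.84 and 2.09 in BA+rapamycin, the only member whose groups did not overlap (14.5% of all probes did not). Its log2 difference was -0.83 (95% confidence interval -1.34 to -0.33, adjusted p = 0.12).

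Hey1 differed by -0.90 (95% confidence interval -1.59 to -0.21, adjusted p = 0.18) and Notch3 by -0.88 (-1.60 to -0.17, adjusted p = 0.196). Without BA+DMSO replicate 2, Heyl (-0.80, adjusted p = 0.0315) and Hey1 (-1.12, adjusted p = 0.0241) were called, as were 11151 of the probes tested, so the counts of this comparison rest on that array. The other 6 members lay between -0.59 (Hey2) and 1.63 (Notch1), with adjusted p of 0.259 or more.

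Rapamycin alone, against DMSO, gave no call for the 9 members either (limma), with 0.0036% of all probes called, and 2 members had an unadjusted p under 0.05, against 4.27% of all probes. Those were Jag1 (-0.54, 95% confidence interval -0.94 to -0.14, adjusted p = 0.932) and Heyl (-0.61, -1.12 to -0.11, adjusted p = 1). Jag1 read 1.41, 1.42 and 1.09 in rapamycin, below all 3 DMSO mice. The groups did not overlap for 5 of 9 members (Notch3, Jag1, Jag2 and Heyl lower, Notch4 higher), whereas 21.5% of all probes did not. Each group enters more than 1 comparison, so that the DMSO arrays are shared by this one and the first.

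The difference between the challenge effects with and without rapamycin was tested as an interaction. It was called for 0 of the 9 members and for 0% of all probes (limma). No member reached an unadjusted p under 0.05, compared with 1702 probes, or 6.12% of all probes. The estimate for Jag2 was 1.05 (95% confidence interval -0.0048 to 2.11, adjusted p = 0.737) and that for Hey1 was -0.97 (-1.95 to 0.01, adjusted p = 0.737). Hey1, called in 1 challenge comparison and not in the other, is thus not shown to respond differently.

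A wider list of 45 Notch pathway genes was followed by role, of which 41 were tested and Dll3, Dlk1, Ncstn and Hes5 were not detected well enough. In BA+DMSO against DMSO 2 were higher and 6 lower, a share near the 20.5% of all probes called, and the list's median log2 difference was -0.12. In BA+rapamycin against rapamycin 3 were higher and 11 lower, below the 41.7% of all probes called, with a median of -0.11, and 10 were lower without Nrarp, which was not above background in the challenged groups. Neither count sets the list apart from other probes. For both rapamycin comparisons and the interaction the count was 0 (limma), with 6, 4 and 2 genes at an unadjusted p under 0.05. In those challenge comparisons 33 and 27 of the 41 genes did not pass.

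The nuclear complex carries the Notch signal on DNA. In the first comparison 5 of its 10 tested genes were called lower and none higher (median -0.65). In the second 7 were lower and 1 was higher (median -0.75). The shares called lower were 10.8% and 22.9% of all probes, and 15.8% and 30.8% of those of low GC content. The role was singled out after its values were seen, in a list whose counts as a whole are near or below those of all probes. Rbpj, the DNA-binding partner of the receptor, had a log2 difference of -0.70 ± 0.19 (SE, adjusted p = 0.0262) and then of -0.82 (adjusted p = 0.00771), but its other probe gave 0.58 (adjusted p = 0.359) and then 1.38 (adjusted p = 0.0261), so the probes of Rbpj disagree. Maml2, a Mastermind coactivator, was at -0.80 (adjusted p = 0.0397) and -1.55 (adjusted p = 0.00132), and its other probe at 0.59 and 0.77 was not called. For Maml2 too, then, the direction was that of 1 probe. Ep300, a histone acetyltransferase that Mastermind recruits, was at -0.71 (adjusted p = 0.0169) and -0.69 (adjusted p = 0.0105). Kat2b, also an acetyltransferase, was not called in the first (-0.72, adjusted p = 0.0633) and was lower in the second (-1.24, adjusted p = 0.00423). The lower calls of the wider list in the first comparison depended on the setting: 1 was left with the GC trend removed, 1 with brightness as a covariate and 0 with no filter, while 2 genes were called higher under each of these.

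Of the 6 genes that modify or mature the receptor, 2 were higher in the first comparison, and 1 was higher and 2 lower in the second. Lfng and Mfng encode Fringe glycosyltransferases, which shift receptors toward Delta-like ligands. Lfng was 3.33-fold higher in BA+DMSO than in DMSO (log2 difference 1.74 ± 0.32 SE, adjusted p = 0.00502) and at 0.22 (adjusted p = 0.594) under rapamycin, and the interaction of -1.51 had an adjusted p of 0.658. Its signal cleared background in all 3 BA+DMSO mice and in 2 of the 3 DMSO mice. Mfng was higher in both, by 0.73 (adjusted p = 0.0446) and 0.77 (adjusted p = 0.0225), and its other probe was called the same way. Poglut1, a receptor O-glucosyltransferase, was lower under rapamycin (-1.13, adjusted p = 0.0293).

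Among the other roles, 1 of 7 cleavage genes was called in each comparison, and it was Aph1b, a gamma-secretase subunit, at -0.59 (adjusted p = 0.0273) and -0.88 (adjusted p = 0.00277). Its other probe was not called in the first comparison (-0.16, adjusted p = 0.713) and was lower in the second (-1.20, adjusted p = 0.00821). Of 9 inhibitor and turnover genes, Nrarp, a feedback inhibitor and itself a Notch target, passed the test under rapamycin, but it passed the filter through the rapamycin group alone (3 of 3 arrays, against 0 of 3 in BA+rapamycin), and the bound of at least 1.03-fold lower gives the call no support. In neither comparison was any of the 2 ligand or 4 ubiquitin ligase genes called. The Hes targets Hes1 (0.53, adjusted p = 0.337), Hes6 (0.16, adjusted p = 0.715) and Hes7 (0.17, adjusted p = 0.571) were not called in the first comparison, and in the second Hes7 was higher (0.58, adjusted p = 0.038) while Hes1 (0.14) and Hes6 (-0.27) were not called.

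**Figure D4:**
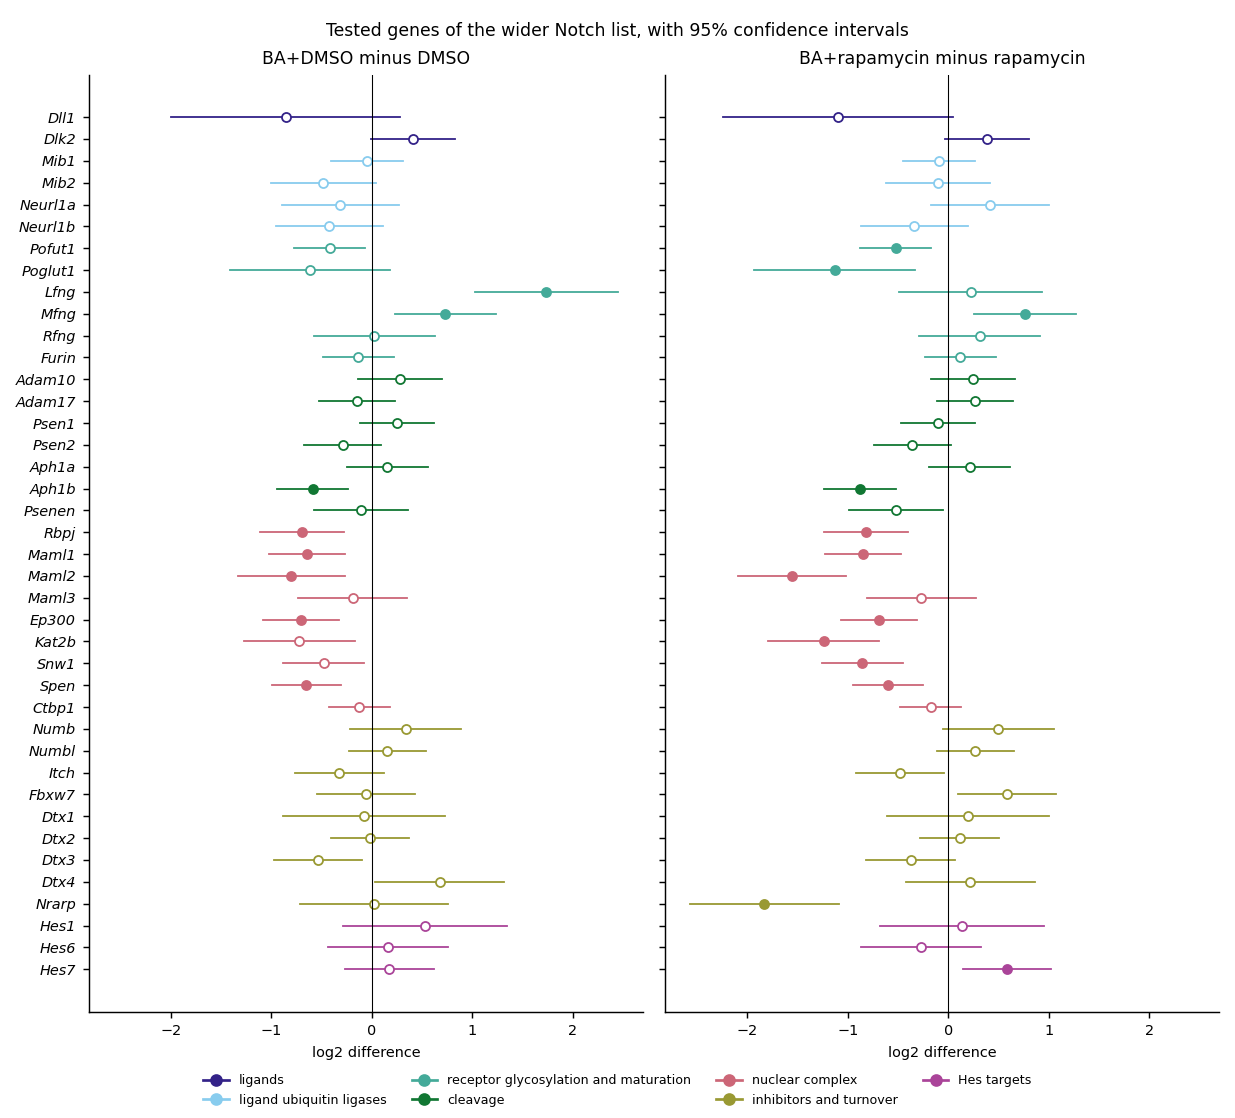
Log2 differences (x axis) with 95% confidence intervals for the tested genes of the wider list, 1 gene left out (y axis), colored by role, for BA+DMSO minus DMSO (left) and BA+rapamycin minus rapamycin (right); filled points passed an adjusted p of 0.05. The filled points of the nuclear complex that are drawn lie left of 0, and Lfng at 1.74 is the highest point on the left.

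The counts of the wider list moved with single arrays. In BA+DMSO against DMSO 1 gene was called without DMSO replicate 2, 2 without DMSO replicate 3, 3 without DMSO replicate 1 or BA+DMSO replicate 1, and 14 without BA+DMSO replicate 3. In BA+rapamycin against rapamycin 7 were called without rapamycin replicate 1 and 9 without rapamycin replicate 3. For rapamycin under challenge 13 were called without BA+DMSO replicate 2.

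The start regions of the members were read for the letters that RBPJ and Hey proteins are known to bind, and for the GC box. RefSeq windows of 250 bases before the start (GRCm38.p6) were found for 8 of the 10 genes, and Hey1 and Heyl had none in the table. The RBPJ core TGGGAA, on either strand, occurred in 1 of the 8 windows, that of Hey2, and in 21.6% of all 32851 windows of that length. The E-box CACGTG, which reads the same on both strands, occurred in 0 of 8 and in 6.02% of all windows, and the GC box GGGCGG, on either strand, in 6 of 8 and in 32.7%. The 6 windows with a GC box had a GC content of 65.6 to 87.2%, and those without had 57.2% and 58.4%. Other windows of like GC content were not compared, so the GC box count is not a result about these genes. The windows of Hey2 (chr10:30842784-30843033, minus strand), Notch3 (chr17:32166891-32167140, minus strand) and Notch2 (chr3:98013288-98013537, plus strand) are printed because these genes were lower together, 5′ to 3′ on the gene strand, with capitals on the RBPJ letters.
Hey2: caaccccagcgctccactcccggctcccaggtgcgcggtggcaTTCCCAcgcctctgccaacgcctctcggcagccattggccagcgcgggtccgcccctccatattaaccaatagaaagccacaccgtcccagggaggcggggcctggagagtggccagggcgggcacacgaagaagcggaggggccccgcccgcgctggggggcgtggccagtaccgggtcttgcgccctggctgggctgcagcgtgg
Notch3: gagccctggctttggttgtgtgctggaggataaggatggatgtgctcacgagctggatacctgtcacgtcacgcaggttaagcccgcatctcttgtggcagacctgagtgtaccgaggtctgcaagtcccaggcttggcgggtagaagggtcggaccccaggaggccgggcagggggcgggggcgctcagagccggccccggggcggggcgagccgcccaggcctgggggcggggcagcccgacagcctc
Notch2: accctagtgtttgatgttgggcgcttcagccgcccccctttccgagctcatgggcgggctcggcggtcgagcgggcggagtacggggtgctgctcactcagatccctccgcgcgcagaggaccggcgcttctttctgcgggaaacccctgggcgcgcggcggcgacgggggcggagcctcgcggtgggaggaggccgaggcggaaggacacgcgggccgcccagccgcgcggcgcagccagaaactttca

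Lists of markers for the cell types of the wall were read on the same arrays. The median log2 value of 10 endothelial markers was 0.76 in DMSO (range over arrays 0.68 to 0.88), 1.08 in rapamycin (0.83 to 1.27), 1.32 in BA+DMSO (1.15 to 1.47) and 1.38 in BA+rapamycin (0.91 to 2.14), beside the levels of Notch4 in the same order. Of those 10 genes 4 were higher and 0 lower in BA+DMSO against DMSO. The 10 smooth muscle markers stood at 7.64, 7.62, 7.08 and 7.32, with a range of 6.24 to 8.06 over the BA+DMSO arrays, and 1 was lower in BA+DMSO and 0 higher. Smooth muscle markers thus varied more among the BA+DMSO mice than between the group values. The 5 pericyte markers stood at 4.91, 4.62, 4.14 and 4.24, with a range of 4.62 to 5.27 in DMSO and 3.98 to 4.37 in BA+DMSO, and 1 of them was lower. That list value is a median of levels and moved with the gene in the middle, since the median difference per pericyte gene was -0.28 in BA+DMSO against DMSO and 0.53 in BA+rapamycin against rapamycin. The 5 arterial endothelial markers stood at 2.35, 2.43, 2.99 and 2.92, and 1 was higher. In BA+rapamycin against rapamycin the called markers went both ways: 2 endothelial markers were higher and 2 lower, 1 smooth muscle marker was higher and 3 lower, 2 pericyte markers were higher and 1 lower, and 1 arterial endothelial marker was lower.

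Markers of other cells of the wall or of infiltrates were read in the same way. The 7 leukocyte markers stood at 0.55 in DMSO and 2.86 in BA+DMSO, with 6 of 7 called higher, and at 0.91 in rapamycin and 2.43 in BA+rapamycin, again with 6 of 7 higher. All 5 proliferation markers were higher in both comparisons, and in each unchallenged group 2 of them were not well above background. Both tested lymphatic endothelial markers were higher in the first comparison and 1 in the second. Of the 5 fibroblast markers 1 was higher in each comparison, and of the 4 tested adipocyte markers none was called in either comparison. No defining marker of the smooth muscle or endothelial list was below background in any group. The part of these shifts in the Notch pathway differences was not tested.

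**Figure D5:**
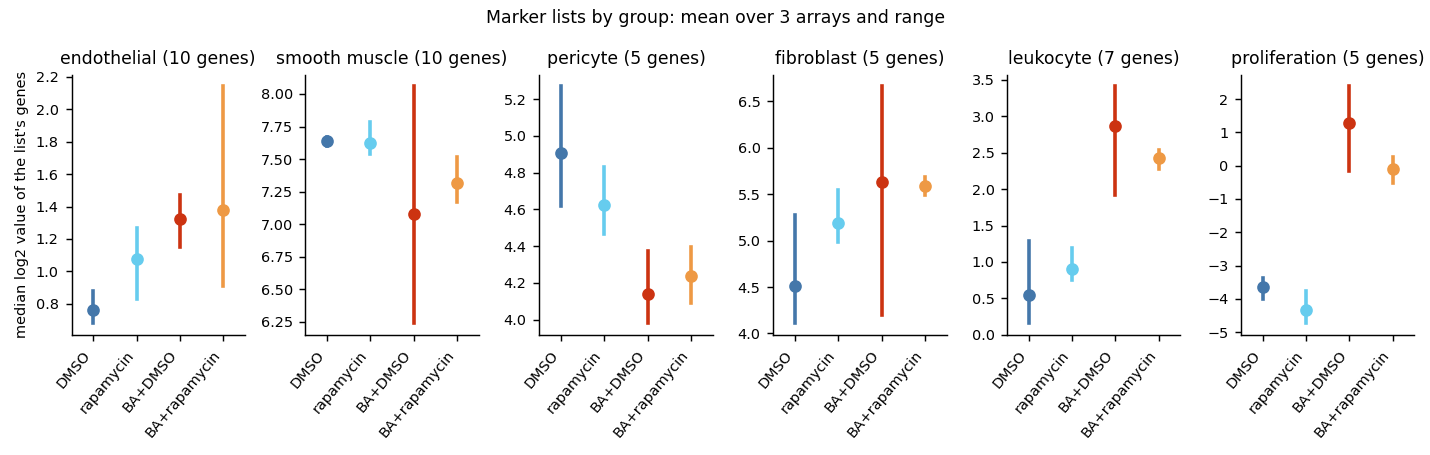
Median log2 value of the genes of each marker list (y axis, a scale per panel) in the 4 groups (x axis); points are means of 3 arrays and lines run from the lowest to the highest array. The leukocyte and proliferation lists of the challenged groups lie above those of the unchallenged groups, and the smooth muscle list spans 6.24 to 8.06 in BA+DMSO.

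The genes most like each member over the 12 arrays were named by Pearson correlation, as a description in which all points share the arrays, their brightness and the group differences. Notch4 was most like the endothelial receptor gene Tie1 (r = 0.98), with 25 probes above 0.9. Notch2 was most like Vezf1 (0.99), but 2526 probes lay above 0.9, as did 1301 for Hey2 (most like Sulf2, 0.98) and 953 for Notch3 (most like Ldhd, 0.99), so these names are each 1 of many. Hey1 was most like Cask (0.99, with 303 probes above 0.9), Jag1 most like Gng7 (0.96, with 32) and Jag2 most like Prmt10 (0.98, with 37). Heyl came closest to a feature named only by its position on chromosome 11 (0.98) and then to Dapk2 (0.98), with 488 probes above 0.9. The tested Notch1 probe was most like Trpm1 (0.999), and 1062 probes correlated with it above 0.9.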

How the data were processed

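RNA of 12 mouse aortas was labelled with 1 dye (Cy3) and hybridised to Agilent mouse arrays of 62976 spots. The deposited intensity files are Feature Extraction output (version 10.7.1.1 per the file headers, build mm9), whose processed signal the authors' software had corrected for background. A deposited matrix of intensity values matched quantile-normalized signals and served as an alternative. Log2 processed signal minus the array's 75th percentile was fitted with limma 3.58.1 (R 4.3.3) as 4 group means over all 12 arrays, each with 3 mice. After 3671 control spots and 6 incomplete probes were left out, 27801 of 55675 probes were tested, a probe being kept when every array of some group had it well above background, with Benjamini-Hochberg adjustment over all of them and calls at an adjusted p under 0.05. The number of arrays limits precision. A gene stands by its brightest tested probe. The code was tested on simulated data.

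The rule for named genes took all 10 members, the tested Hes genes, up to 5 called genes of the wider list with the largest difference in each comparison, and the gene most like each member. Members and lists were chosen with earlier results of these data known. Alternatives covered scaling, background, filters, slide, title date, brightness, array weights, probe averaging, the study's call rule (unadjusted p under 0.01 with a fold above 4 or below 0.25), single arrays and, added after the data were seen, probe GC content. No spot was saturated. Of the wider list, 1 gene of the wider list is counted in the totals and not reported here by name.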

Additional observations from a re-analysis of the deposited data

Results flagged for a closer look

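For the tested Notch1 probe, the rapamycin differences had opposite signs in unchallenged and in challenged mice, with every treated mouse on the same side of its control mean, but neither passed the test. For Notch1 the log2 difference was -0.39 without challenge (adjusted p = 1) and 1.63 with it (adjusted p = 0.345), and the difference between them was 2.02 (adjusted p = 0.737 by limma). Leaving out 1 array moved the -0.39 to between -1.02 and 0.130, the 1.63 to between 0.195 and 2.60 and the 2.02 to between 0.585 and 2.99. With brightness as a covariate the 3 values were 0.0981, 0.176 and 0.0774. The Jag2 probe met the same criterion with -0.57 (adjusted p = 1) and 0.49 (adjusted p = 0.387), 1.05 apart (adjusted p = 0.737, and 0.0319 with array weights). Its signal cleared background in 1 of the 3 BA+DMSO mice and in 0 of the 3 BA+rapamycin mice, so the challenged value compares background readings and has no sign to set against the other.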

How the results depend on the processing

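Slide, array brightness and single arrays limited the challenge results, and dim signals limited Jag2 and Dll4. The 12 called differences of members kept their call in 291 of 341 alternatives and reversed in 2, and the 33 differences that were not called became called in 17 of 923. The first totals include Jag2 in the challenge, with 22 of 27 kept and 1 reversed. Its kept calls are no support, since it passed the filter through the unchallenged groups alone and no direction is given for it. The cause of the changes below was not tested. Fits within a slide and fits of only 2 groups also had fewer arrays.

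For BA+DMSO against DMSO, against 6 members with Jag2 and 8 wider genes, the counts were 0 and 0 with slide as a fixed block, 3 and 3 with brightness as a covariate, 2 and 1 with only the groups compared, and 0 and 0 by the study's call rule. The wider count was 2 with no filter, 14 with slide as a random block, 18 with array weights, 5 with all probes averaged and 3 without the GC trend. For BA+rapamycin against rapamycin, against 6 and 14, they were 2 and 0 with brightness and 0 and 0 by the study's rule, and the wider count was 8 with slide fixed and 2 within slide 2. Array weights gave 1 member and 9 wider genes for rapamycin under challenge, 3 wider genes for rapamycin alone, and 1 member and 4 wider genes for the interaction. Leaving out 1 array gave 0 to 2 members for rapamycin under challenge, and wider counts of 1 to 14, 0 to 13, 7 to 19 and 0 to 5 for the challenge, rapamycin under challenge, the challenge under rapamycin (19 without BA+DMSO replicate 2) and the interaction (5 without BA+DMSO replicate 2).

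Signs turned for Jag2 with normexp (0.137 in the challenge and 0.717, adjusted p = 0.00742, under rapamycin) and with brightness under rapamycin (0.390). Normexp moved the median of all probes to 0.0928 and 0.136 in these comparisons. With brightness, Notch1 turned to -1.73 and -1.66 in the challenge comparisons and 0.0981 for rapamycin alone, Hey1 to 0.194 in the challenge and -0.0463 for rapamycin alone, and the Notch4 interaction to 0.0902. With slide fixed, and within slide 1, which holds 1 rapamycin array, rapamycin alone gave Hey2 0.158 and Hey1 -0.0906, both resting on that 1 mouse. The Notch3 interaction was 0.343 with array weights and 0.00693 with title date as a random block, and that of Heyl 0.00619 with array weights. Leaving out 1 array, Notch1 ran from -0.124 to 2.28 in the challenge and from -1.02 to 0.130 for rapamycin alone, Hey1 from -0.0271 to 0.166 and Notch2 from -0.0627 to 0.0186 for rapamycin alone, Notch4 from -0.0287 to 0.649 for rapamycin under challenge, and the interactions of Notch3 from -0.608 to 0.0345 and of Notch4 from -0.528 to 0.150. No paired analysis was possible because the replicate numbers follow accession order and pair no mice. Some titles of different groups share a date, which was fitted as a random block (correlation 0.497) and changed the calls of Jag1 and Notch4 in the challenge, with the 2 undated arrays each kept as a block of its own.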
